A study of Homo sapiens with 18 samples.

Results

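The BCL2 family decides whether mitochondria release the factors that start apoptosis. BH3-only proteins sense damage and either activate the pore-forming effectors BAX and BAK1 or block the pro-survival proteins that hold those effectors in check. In fibroblasts under oxidative or genotoxic stress, several BH3-only and effector genes are controlled at the level of transcription, and the transcript balance between the pro-death and pro-survival sides is one layer of control above protein stability and localisation. The 10 genes described here were taken by symbol from the deposited table: 6 pro-death genes, comprising the BH3-only genes BBC3 (PUMA), PMAIP1 (NOXA), BID and BCL2L11 (BIM) and the effectors BAX and BAK1, and 4 pro-survival genes, BCL2, BCL2L1 (BCL-XL), BCL2L2 (BCL-W) and MCL1. All 10 of them were among the 56269 genes listed, and all 10 were among the 13686 genes with a mean of at least 10 normalized counts that were tested.

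RNA was sequenced from IMR90 cells, a widely used strain of primary human lung fibroblasts, in 6 groups of 3 replicates. The pre-incubation lasted 6 h and was with PBS, cNSF-HA (20 μg/ml) or fNSF-HA (20 μg/ml). Here cNSF-HA is hyaluronan made by naked mole-rat skin fibroblasts that was mixed with heat-inactivated hyaluronidase and heated. fNSF-HA is the same hyaluronan partially fragmented with active hyaluronidase, which was then inactivated by heat. The other 3 groups received the same pre-incubations and then 200 μM tBHP (tert-butyl hydroperoxide, an organic oxidant) for 1 h, and were collected 6 h after the start of tBHP. Cells without tBHP were collected at the end of the pre-incubation, and the medium with PBS or HA was removed before tBHP, with no mock-treated group among these samples. The effect of tBHP therefore cannot be told apart from that of the later collection and the change of medium. All groups came from 1 cell strain. The study's methods describe its replicates as biological without saying what separated those of the RNA libraries, so the p-values measure the spread between replicates of this strain.

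Between 20261103 and 26287660 reads were counted on genes per library. The fibroblast markers COL1A1 and VIM had at least 160232 and 140319 normalized counts in every library. Of 15 listed markers of epithelium, endothelium and leukocytes, KRT18 (920.1 to 1778 normalized counts), TEK (694 to 1453) and KRT8 (233 to 464) were the most abundant. VWF had 3.73 to 24.97, and the others, EPCAM, CDH1, PECAM1 and PTPRC among them, never exceeded 12.65. The sum of the 5 endothelial markers, nearly all TEK, was 1286 to 1459 without tBHP and 713 to 1101 with it. VWF went the other way, being called higher with tBHP in PBS and fNSF-HA cells, where TEK was called lower. The sum of the 5 epithelial markers was 1904 to 2152 without and 1158 to 2041 with tBHP, and that of the 5 leukocyte markers 3.73 to 7.82 and 4.38 to 19.0. The part of these markers in the results was not tested. The spread between replicates was wider after tBHP (median SD over all genes 0.21 on the log2 scale, against 0.076 without). Among the libraries with tBHP, fNSF-HA + tBHP replicate 2 stood apart: relative to the mean of those libraries, its median log2 deviation was -0.78 for the transcripts of the highest GC content and 0.48 for those of the lowest. The tBHP responses of the members in fNSF-HA cells, and the main differences that rest on them, are also given without it.

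The promoter windows of 6 members that changed with tBHP in every pre-incubation are shown, the 4 pro-death genes that rose, BCL2L1, which also rose, and BCL2, which fell. MCL1, which rose too, had no entry in the table. Each runs from 250 bases before to 50 bases after the gene start given by RefSeq (GRCh38.p14) and is written 5′ to 3′ on the gene's strand, with capitals marking matches on either strand to the E-box CACGTG and the GC box GGGCGG. The windows are BBC3 at chr19:47232618-47232917 (minus strand), PMAIP1 at chr18:59899746-59900045 (plus), BAX at chr19:48954625-48954924 (plus), BAK1 at chr6:33580227-33580526 (minus), BCL2 at chr18:63319720-63320019 (minus) and BCL2L1 at chr20:31723914-31724213 (minus).
BBC3: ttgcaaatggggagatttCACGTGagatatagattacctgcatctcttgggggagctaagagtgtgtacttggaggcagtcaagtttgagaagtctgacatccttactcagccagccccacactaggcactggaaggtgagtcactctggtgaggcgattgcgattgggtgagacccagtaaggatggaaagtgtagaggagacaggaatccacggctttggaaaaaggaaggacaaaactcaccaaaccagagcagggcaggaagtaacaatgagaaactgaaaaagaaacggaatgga
PMAIP1: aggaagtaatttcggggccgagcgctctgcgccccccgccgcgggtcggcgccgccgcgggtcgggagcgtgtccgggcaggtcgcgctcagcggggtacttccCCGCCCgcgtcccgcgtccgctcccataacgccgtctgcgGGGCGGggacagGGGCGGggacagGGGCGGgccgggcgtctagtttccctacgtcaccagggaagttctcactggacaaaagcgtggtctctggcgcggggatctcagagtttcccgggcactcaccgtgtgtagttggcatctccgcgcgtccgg
BAX: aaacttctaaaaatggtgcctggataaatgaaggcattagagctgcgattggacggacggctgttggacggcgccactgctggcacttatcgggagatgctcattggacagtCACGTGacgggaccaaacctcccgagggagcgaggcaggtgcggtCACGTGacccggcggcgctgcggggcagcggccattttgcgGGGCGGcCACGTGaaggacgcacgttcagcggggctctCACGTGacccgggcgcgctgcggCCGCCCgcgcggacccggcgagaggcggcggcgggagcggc
BAK1: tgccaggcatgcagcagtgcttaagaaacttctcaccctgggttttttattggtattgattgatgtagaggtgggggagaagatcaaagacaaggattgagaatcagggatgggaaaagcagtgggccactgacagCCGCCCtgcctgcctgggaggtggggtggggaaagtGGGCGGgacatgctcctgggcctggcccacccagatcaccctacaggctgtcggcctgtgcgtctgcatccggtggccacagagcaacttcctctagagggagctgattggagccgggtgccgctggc
BCL2: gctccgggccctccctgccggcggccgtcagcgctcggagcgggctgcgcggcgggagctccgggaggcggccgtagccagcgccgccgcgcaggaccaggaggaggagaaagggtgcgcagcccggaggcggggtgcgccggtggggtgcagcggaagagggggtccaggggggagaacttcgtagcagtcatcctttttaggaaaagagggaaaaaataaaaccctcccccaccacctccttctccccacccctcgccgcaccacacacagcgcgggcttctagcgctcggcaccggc
BCL2L1: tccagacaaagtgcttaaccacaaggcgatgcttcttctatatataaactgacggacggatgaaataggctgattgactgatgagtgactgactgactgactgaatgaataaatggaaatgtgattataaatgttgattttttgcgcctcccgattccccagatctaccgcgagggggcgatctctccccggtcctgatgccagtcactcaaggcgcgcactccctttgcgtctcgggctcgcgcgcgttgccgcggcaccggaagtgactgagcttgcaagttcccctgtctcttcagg

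RefSeq promoters were found for 8 members, all except BCL2L2 and MCL1. BAX held 4 copies of the E-box and BBC3 1, and 7.256% of all 35116 RefSeq promoters of this length held at least 1. The GC box occurred 4 times each in PMAIP1 and BID, 3 times in BCL2L11 and 2 times each in BAX and BAK1, and 44.954% of all promoters held it. The cyclic AMP response element TGACGTCA was in 1.848% of all promoters and in none of the 8 windows, and BCL2 and BCL2L1 held none of the 3 motifs. These matches describe letters in 1 window per gene, and binding was not measured.

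In unstressed PBS cells the levels per transcript length spanned more than 2 orders of magnitude. Expressed as TPM (reads per kilobase of exon, scaled to the same total in every library), MCL1 was highest at 314 ± 10.4 (SD, n = 3), followed by BAX at 145 ± 2.03, BCL2L1 at 101 ± 4.66 and BCL2L2 at 72.9 ± 1.14. BID (47.4 ± 1.02 TPM) and BAK1 (44.3 ± 2.54) overlapped in their libraries, and PMAIP1 followed at 33.8 ± 3.24. BBC3 (4.76 ± 0.32), BCL2L11 (2.26 ± 0.06) and BCL2 (1.37 ± 0.09) were the least abundant, so the family member after which the group is named was the lowest of the 10. The most abundant member on the pro-survival side was thus MCL1, a short-lived protein, and on the pro-death side BAX.

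tBHP changed 7 of the 10 members in cells pre-incubated with PBS, 6 upward and 1 downward, at an adjusted p under 0.05 (limma, Benjamini-Hochberg over the 13686 genes), where 51.1% of all genes tested were called in either direction, 24.2% higher and 26.9% lower. Of the 6 pro-death genes, 4 rose and none fell, with BBC3 well ahead of PMAIP1, BAX and BAK1. Of the 4 pro-survival genes BCL2L1 and MCL1 rose and BCL2 fell. The same 6 genes were higher and the same 1 lower in cNSF-HA cells (background 50.8% in either direction, 24.0% higher, 26.8% lower) and in fNSF-HA cells (41.9%, 19.2% and 22.7%). For pre-incubation with PBS, cNSF-HA and fNSF-HA, in that order, the median log2 change of the pro-death genes was 0.75, 0.83 and 0.55, against 0.13, 0.20 and 0.20 for the pro-survival genes and 0.0043, -0.00053 and -0.034 for all genes tested. The libraries with tBHP did not overlap those without in 8, 9 and 8 of the 10 members, against 63.8%, 63.7% and 48.7% of all genes tested.

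**Figure D1:**
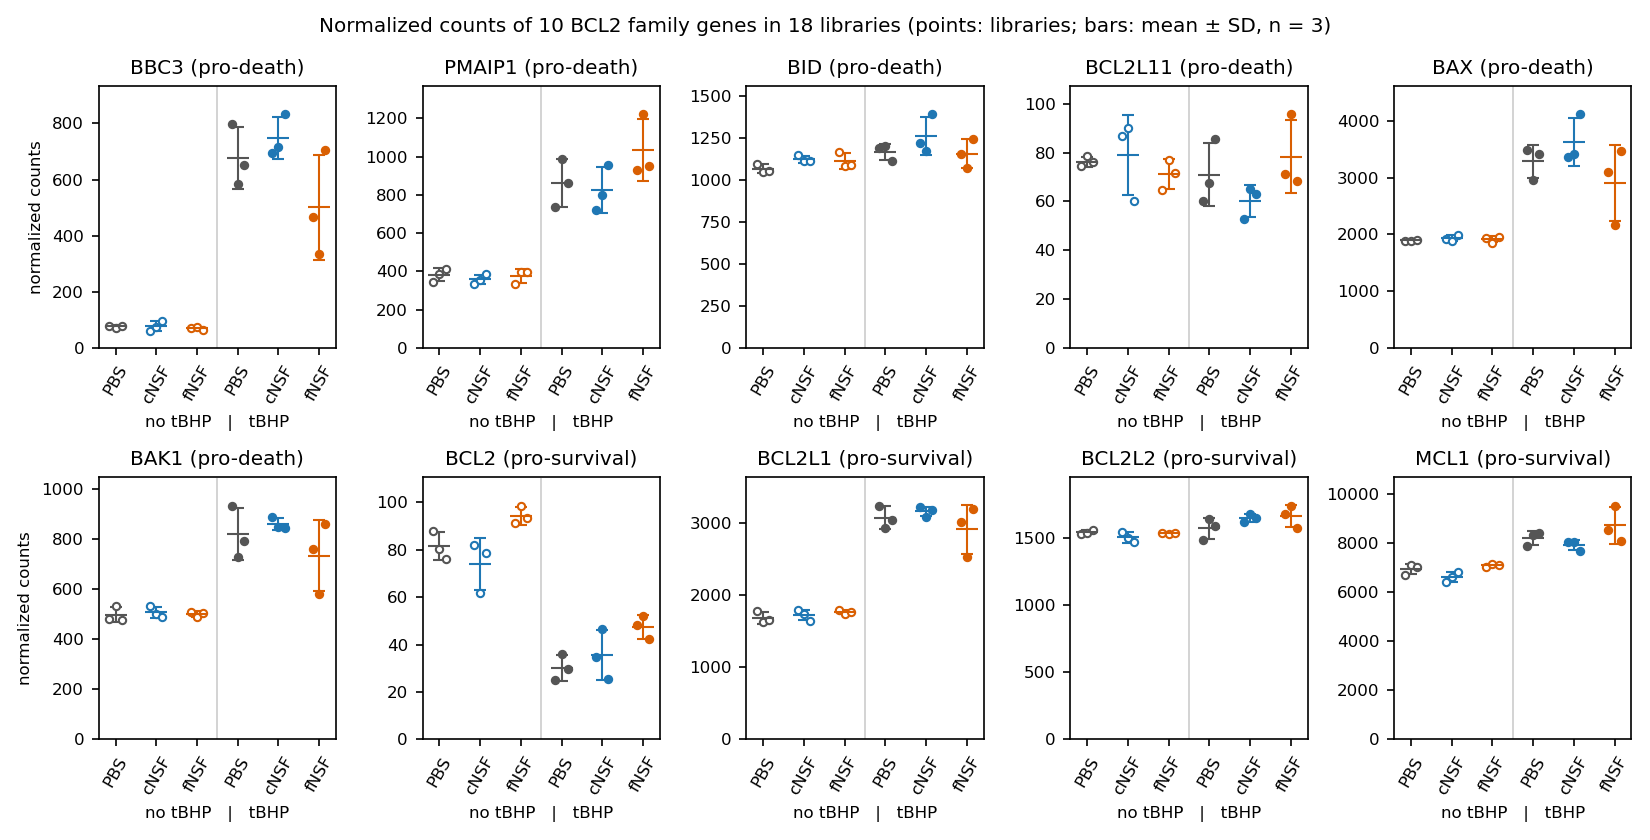
Normalized counts (vertical axis, from 0) of the 10 members in the 18 libraries, with 1 panel per gene; open points are libraries without tBHP, filled points with tBHP, and bars are the mean ± SD of 3 replicates. BBC3 goes from between 62.0 and 96.1 without tBHP to between 334 and 834 with it, and BCL2 from between 61.6 and 98.5 to between 24.97 and 52.1.

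BBC3, whose product PUMA binds every pro-survival member, had the largest change of the family. Without tBHP its normalized counts were 79.2, 70.9 and 79.6 in the PBS libraries, 62.0, 73.3 and 96.1 in the cNSF-HA libraries and 71.6, 73.9 and 63.4 in the fNSF-HA libraries. With tBHP they were 799, 584 and 652 after PBS, 694, 716 and 834 after cNSF-HA and 467, 334 and 704 after fNSF-HA. No library with tBHP overlapped any library without it, and the lowest of the former, fNSF-HA + tBHP replicate 2, still lay more than 3-fold above the highest of the latter. The group means with tBHP were 8.86, 9.69 and 7.21 times those without it for PBS, cNSF-HA and fNSF-HA, and the log2 changes were 3.12 ± 0.20 (SE), 3.28 ± 0.20 and 2.77 ± 0.20 (adjusted p = 1.33e-09, 7.63e-10 and 6.88e-09, limma). Without fNSF-HA + tBHP replicate 2 the change in fNSF-HA cells was 3.03.

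PMAIP1 encodes NOXA, a BH3-only protein that binds MCL1 and promotes its loss. Its normalized counts were 346, 388 and 413 after PBS, 337, 356 and 385 after cNSF-HA and 335, 398 and 395 after fNSF-HA. After tBHP they were 737, 989 and 862, then 722, 797 and 959, and 930.4, 1222 and 949 in the same order of pre-incubations. Every library with tBHP was above every library without it, and the highest was fNSF-HA + tBHP replicate 2, the library that was lowest for BBC3. The log2 changes were 1.16 ± 0.13 (SE), 1.19 ± 0.13 and 1.45 ± 0.13 (adjusted p = 1.13e-06, 9.5e-07 and 9.3e-08, limma), which correspond to ratios of the means of 2.26, 2.30 and 2.75.

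The BH3-only genes BID and BCL2L11 were not called. BID, whose protein is cut by caspase-8 and so links death receptors to mitochondria, was between 1049 and 1165 normalized counts without tBHP and between 1070.1 and 1393 with it. Its log2 changes were 0.13 (95% interval -0.03 to 0.29), 0.16 (0.01 to 0.32) and 0.06 (-0.10 to 0.21) after PBS, cNSF-HA and fNSF-HA. BCL2L11, which encodes BIM, the activator controlled by FOXO factors and by growth factor withdrawal, had between 59.96 and 89.9 normalized counts without tBHP and between 52.7 and 95.7 with it. Its log2 differences were -0.12 (95% interval -0.49 to 0.26), -0.37 (-0.74 to 0.01) and 0.13 (-0.25 to 0.50), from between 50 and 92 reads per library. The antisense lincRNA MIR4435-2HG shares 10.9% of the exon bases of BCL2L11 and was present at 1228 to 1683 normalized counts, and since the libraries do not keep the strand, reads from the shared bases cannot be told apart.

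The effectors BAX and BAK1, whose products oligomerise in the outer mitochondrial membrane, rose together. BAX was at 1893, 1882 and 1909 normalized counts in PBS cells, with a range of 1855 to 1998 over the 6 libraries pre-incubated with HA. After tBHP it reached 3486, 2959 and 3416 for PBS, 3365, 3420.2 and 4123 for cNSF-HA and 3098, 2163 and 3471 for fNSF-HA. The 9 libraries with tBHP lay above the 9 without it, the nearest of them being fNSF-HA + tBHP replicate 2. The log2 changes of BAX were 0.79 ± 0.12 (SE), 0.90 ± 0.12 and 0.57 ± 0.12 (adjusted p = 4.26e-05, 1.19e-05 and 0.00118, limma), and the last was 0.77 without that library.

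BAK1 followed the same order at a lower level. Its normalized counts were 481, 531 and 478 in PBS cells and 933, 729 and 792 after tBHP, 531, 500.4 and 489 in cNSF-HA cells and 888, 848 and 844 after tBHP, and 508, 487 and 505 in fNSF-HA cells and 761, 579.7 and 859.9 after tBHP. Again no library with tBHP fell within the range of those without. The log2 changes were 0.71 ± 0.11 (SE), 0.76 ± 0.11 and 0.53 ± 0.11 (adjusted p = 5.78e-05, 3.2e-05 and 0.00112, limma), with 0.69 in fNSF-HA cells when fNSF-HA + tBHP replicate 2 was left out. When the dependence of each library's values on the GC content and length of the transcripts was removed, which also takes out any difference between groups that follows these properties, the rises of BAX (0.50, 0.51 and 0.45) and BAK1 (0.44, 0.43 and 0.44) remained past the threshold at a size that was smaller by more than 1.5 times in PBS and cNSF-HA cells.

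On the pro-survival side, BCL2, the founding member of the family, was the only one of the 10 genes that fell. Its normalized counts were 87.9, 80.2 and 76.1 for PBS, 82.1, 61.6 and 78.6 for cNSF-HA and 91.2, 98.5 and 93.2 for fNSF-HA. With tBHP they were 24.97, 35.9 and 29.5 after PBS, 34.8, 46.7 and 25.4 after cNSF-HA and 48.2, 52.1 and 42.1 after fNSF-HA. All libraries with tBHP were below all libraries without it. The log2 changes were -1.42 ± 0.20 (SE), -1.07 ± 0.20 and -0.98 ± 0.20 (adjusted p = 1.13e-05, 0.000223 and 0.000601, limma), from between 22 and 100 reads per library.

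BCL2L1 rose in every pre-incubation. This gene gives mainly the pro-survival BCL-XL and, by splicing, a shorter pro-death form, which gene-level counts do not separate. The antisense gene ABALON shares 43.0% of its exon bases and never exceeded 5.599 normalized counts. How reads in bases shared by genes were counted is not given in the sources used here, and if they were left out the level of BCL2L1 per length is too low, so its place in the order of levels next to BAX is uncertain. It had 1787, 1630.1 and 1657 normalized counts in PBS cells and 1647 to 1798 in the HA pre-incubations, and after tBHP 3246, 2935 and 3045 for PBS, 3220.2, 3088 and 3182 for cNSF-HA and 3024, 2533 and 3194 for fNSF-HA. The groups with and without tBHP did not overlap. The log2 changes were 0.86 ± 0.08 (SE), 0.87 ± 0.08 and 0.72 ± 0.08 (adjusted p = 6.52e-08, 6.35e-08 and 7.8e-07, limma), close in size to those of BAX.

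MCL1, whose protein is turned over within hours and is the main partner of NOXA, rose by less. Its normalized counts were 6711, 7087 and 7023 in PBS cells and 7893, 8321 and 8413 after tBHP. They were 6416, 6620.1 and 6818 in cNSF-HA cells and 8040.5, 8032 and 7694 after tBHP. In fNSF-HA cells they went from 7031, 7158 and 7105 to 8543, 9524 and 8074. Every library with tBHP exceeded every library without it. The log2 changes were 0.24 ± 0.06 (SE), 0.26 ± 0.06 and 0.29 ± 0.06 (adjusted p = 0.00293, 0.00175 and 0.000812, limma), or 18.3%, 19.7% and 22.8% of the mean. This rise depended on the scaling. In TPM the group means went from 314 to 340 after PBS, from 301 to 319 after cNSF-HA and from 317 to 364 after fNSF-HA. On that scale the cNSF-HA libraries overlapped, with 288.8 to 311.7 without and 296.3 to 333.5 with tBHP. The changes in TPM were not tested. BCL2L2, which encodes BCL-W, stayed between 1469 and 1559 normalized counts without tBHP and between 1489 and 1742 with it, and its log2 changes of 0.02 (95% interval -0.10 to 0.15), 0.13 (0.01 to 0.26) and 0.12 (-0.01 to 0.24) did not pass the threshold. The readthrough transcript BCL2L2-PABPN1 shares 19.4% of its exon bases and never exceeded 12.1 normalized counts.

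**Figure D2:**
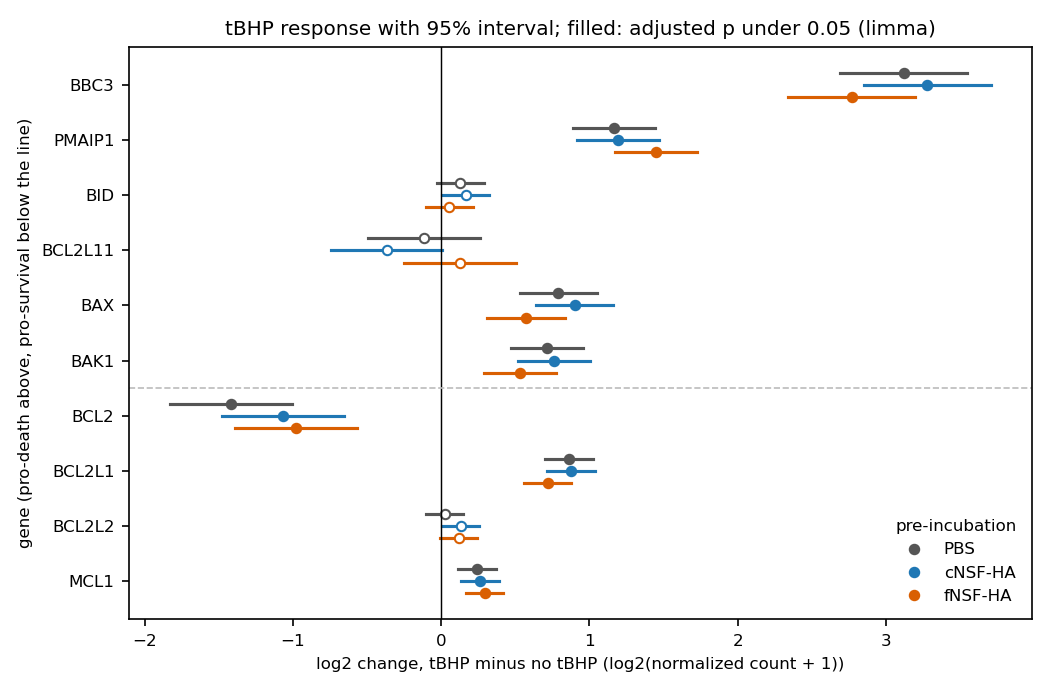
Log2 change with tBHP against without (horizontal axis) of each member in PBS, cNSF-HA and fNSF-HA cells, with the 95% interval from limma; filled points had an adjusted p under 0.05, and a dashed line divides pro-death from pro-survival genes. The 3 pre-incubations sit next to each other for every gene, from about 3 for BBC3 to between -1.42 and -0.98 for BCL2.

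Without fNSF-HA + tBHP replicate 2 the responses in fNSF-HA cells not given so far were 1.32 for PMAIP1, 0.23 for MCL1, 0.82 for BCL2L1 and -1.05 for BCL2, all past the threshold, and 0.11 for BID, 0.084 for BCL2L2 and -0.026 for BCL2L11, which were not. Each of the 21 called responses held its call and its direction under all 29 alternatives of processing. edgeR also called BID in PBS and cNSF-HA cells (log2 0.20 and 0.23) and BCL2L2 in cNSF-HA and fNSF-HA cells (0.19 and 0.18), while the median of all genes lay 0.075, 0.065 and 0.042 above 0 in that fit. In cNSF-HA cells BID and BCL2L2 also passed after quantile normalization (0.19 and 0.14) and without fNSF-HA + tBHP replicate 2 (0.16 and 0.13), BCL2L2 with DESeq2 (0.13) and BID without cNSF-HA + tBHP replicate 2 (0.21). BCL2L11 in cNSF-HA cells passed the threshold without cNSF-HA replicate 3, whose 59.96 normalized counts were the lowest without tBHP (log2 -0.55, adjusted p = 0.0209, limma). Such calls are to be read against the main fit, which called 51.1%, 50.8% and 41.9% of all genes after PBS, cNSF-HA and fNSF-HA.

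The order of the levels changed accordingly. In PBS cells with tBHP, MCL1 remained highest at 340 ± 15.3 TPM (SD, n = 3), ahead of BAX at 230 ± 17.7 and BCL2L1 at 168 ± 6.40. PMAIP1 (69.9 ± 11.1 TPM), BCL2L2 (67.9 ± 4.19) and BAK1 (66.8 ± 7.62) overlapped, BID stayed at 47.5 ± 2.08 and BBC3 reached 38.5 ± 5.74. BCL2L11 (1.93 ± 0.36) and BCL2 (0.464 ± 0.090) remained the lowest. The summed level of the 6 pro-death genes went from 277 ± 4.53 to 454 ± 17.1 TPM and that of the 4 pro-survival genes from 489 ± 7.09 to 576 ± 13.4 TPM.

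The ratio of the summed pro-death to the summed pro-survival level was 0.566, 0.567 and 0.568 in the PBS libraries, 0.598, 0.584 and 0.603 in the cNSF-HA libraries and 0.565, 0.550 and 0.568 in the fNSF-HA libraries. With tBHP it was 0.836, 0.747 and 0.785 after PBS, 0.789, 0.807 and 0.959 after cNSF-HA and 0.726, 0.596 and 0.836 after fNSF-HA. All libraries with tBHP except fNSF-HA + tBHP replicate 2 lay above every library without it, and that one fell between the values of cNSF-HA cells without tBHP. The ratio of BAX to BCL2, a common index of apoptotic priming, went with tBHP from 106 ± 8.09 to 512 ± 131 for PBS, from 121 ± 17.0 to 504 ± 210 for cNSF-HA and from 92.8 ± 6.28 to 285 ± 93.2 for fNSF-HA (SD, n = 3). The 3 fNSF-HA + tBHP libraries had 292, 189 and 375, the lowest being replicate 2. Its denominator BCL2 was the lowest member, with between 22 and 100 reads per library. The ratio of BAX to MCL1, the most abundant pro-survival transcript, changed less. It went from 0.46 ± 0.014 to 0.68 ± 0.073 for PBS, from 0.50 ± 0.013 to 0.78 ± 0.11 for cNSF-HA and from 0.46 ± 0.017 to 0.57 ± 0.17 for fNSF-HA (SD, n = 3). These ratios are of transcripts and were not tested.

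**Figure D3:**
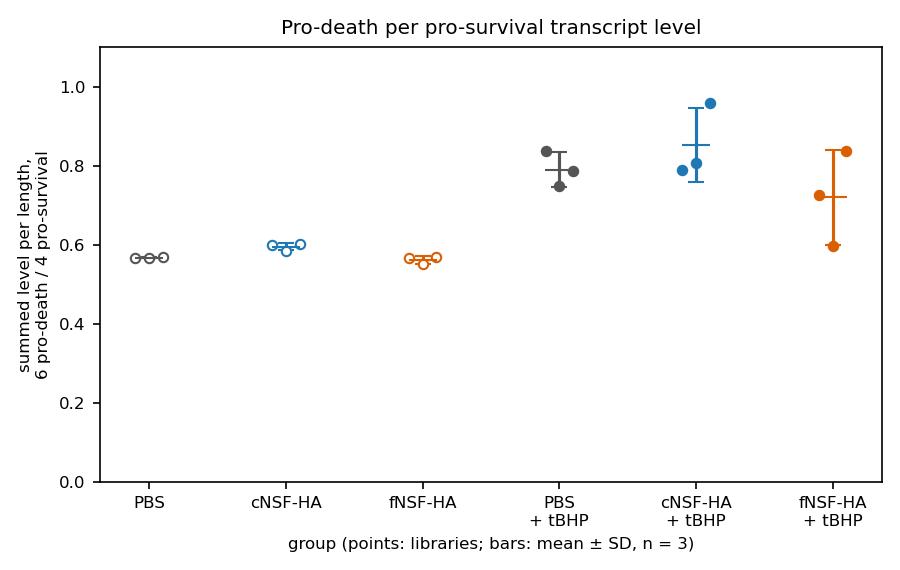
Ratio of the summed TPM of the 6 pro-death genes to that of the 4 pro-survival genes (vertical axis, from 0) in the 6 groups; points are libraries and bars the mean ± SD of 3. Libraries without tBHP sit between 0.550 and 0.603 and those with tBHP between 0.596 and 0.959, with the lowest from fNSF-HA + tBHP replicate 2.

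The comparison of cNSF-HA with fNSF-HA after tBHP asks whether the levels of these genes after stress differ with the length of the HA polymer. Unlike the test of the responses further below, it includes differences present before tBHP, such as those of BCL2 (-0.35) and MCL1 (-0.10). No member passed the threshold in this comparison (0 of 10 with limma, edgeR or DESeq2, against 0% of all genes with limma and edgeR and 5.79% with DESeq2), while 6 had an unadjusted p under 0.05 with limma, as did 4412 of the 13686 genes. BBC3 was 0.64 ± 0.20 higher after cNSF-HA on the log2 scale (SE, adjusted p = 0.0981, limma), BAX 0.34 ± 0.12 (adjusted p = 0.0986, limma) and BAK1 0.25 ± 0.11 (adjusted p = 0.148, limma). The differences of PMAIP1 (-0.32 ± 0.13), BCL2 (-0.44 ± 0.20) and MCL1 (-0.13 ± 0.06) had the opposite sign (adjusted p = 0.113, 0.134 and 0.139, limma). The signs did not divide by role. Pro-survival BCL2L1 (0.12) had the sign of the effectors and of BID (0.13), and pro-death PMAIP1 and BCL2L11 had that of BCL2 and MCL1. In BCL2L11 (-0.36) and MCL1 all cNSF-HA libraries lay below all fNSF-HA libraries, as they did in 8.29% of all genes tested.

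These differences varied with single libraries and with the GC content of the transcripts. BBC3 is the member of the highest GC content (69.7% in its longest transcript), followed by BAX (58.9%), BAK1 (58.8%) and BCL2L1 (56.9%), and PMAIP1 has the lowest (37.2%), with a median of 47.9% over all genes. The library fNSF-HA + tBHP replicate 2 was the lowest of the 9 libraries with tBHP for BBC3, BAX, BAK1, BCL2L1 and BID and the highest for PMAIP1, BCL2, MCL1, BCL2L11 and BCL2L2. With this dependence on GC content and length removed, the difference was -0.053 for BBC3, 0.030 for BAX, -0.035 for BAK1, -0.10 for PMAIP1, -0.29 for BCL2 and -0.026 for MCL1. Without fNSF-HA + tBHP replicate 2 the differences were 0.38, 0.14, 0.09, -0.20, -0.37 and -0.07 in the same order of genes, that of BCL2L11 was -0.21, and no member passed. Without cNSF-HA + tBHP replicate 3 the difference of BCL2 was -0.23. Without fNSF-HA + tBHP replicate 3, which left replicates 1 and 2 in that group, BBC3 (0.91), BAX (0.48), BAK1 (0.37), PMAIP1 (-0.38) and MCL1 (-0.19) passed the threshold (adjusted p = 0.00159, 0.00426, 0.0136, 0.0415 and 0.0227, limma), as did 5586 (40.8%) of all genes. The part of GC content in these differences was measured only by this removal, and what set it in the libraries was not tested.

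**Figure D4:**
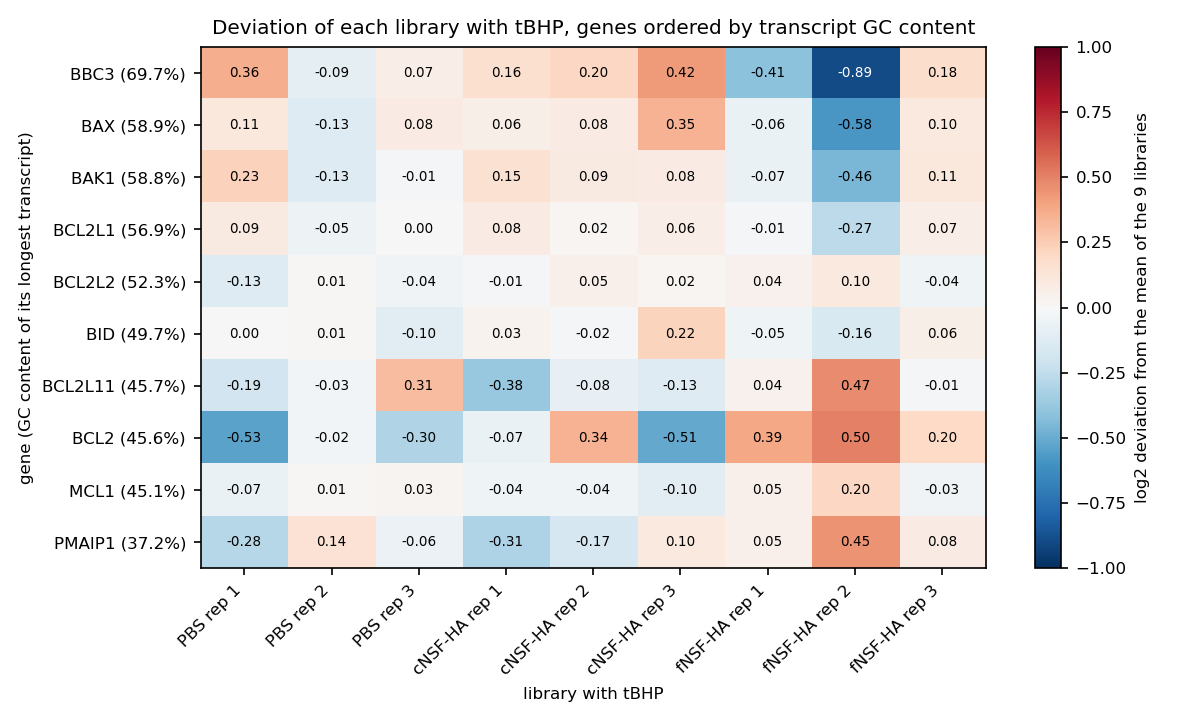
Log2 deviation of each of the 9 libraries with tBHP from their mean (colour and printed value), for the 10 members ordered by the GC content of the longest transcript, highest at the top. Replicate 2 of fNSF-HA + tBHP runs from -0.89 for BBC3 at the top to 0.45 for PMAIP1 at the bottom, with BCL2L2 above and BID below 0 in between.

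Against PBS, cells pre-incubated with cNSF-HA showed no called member after tBHP, with log2 differences from -0.22 for BCL2L11 to 0.21 for BCL2, 0 members at an unadjusted p under 0.05 (limma, as against 1183 of the 13686 genes), 0 members called by limma, edgeR or DESeq2 (0%, 0% and 0.0658% of all genes), and all 10 members overlapping between the groups (9.57% of all genes did not). The 95% intervals were -0.28 to 0.58 for BBC3, -0.34 to 0.21 for PMAIP1, -0.12 to 0.40 for BAX and -0.18 to 0.08 for MCL1, so differences of these sizes are not excluded by the data. Single libraries moved both ends of this range, BCL2L11 to -0.086 without PBS + tBHP replicate 3 and -0.13 without cNSF-HA + tBHP replicate 1, and BCL2 to between -0.0038 without cNSF-HA + tBHP replicate 2 and 0.42 without cNSF-HA + tBHP replicate 3.

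fNSF-HA cells also had no called member against PBS after tBHP (limma, edgeR and DESeq2), where 0.139% of all genes passed with limma, 0.263% with edgeR and 3.3% with DESeq2. The members with an unadjusted p under 0.05 (limma) were 2, BCL2 and BBC3, beside 3102 of the 13686 genes. BCL2 was higher in fNSF-HA cells by 0.65 ± 0.20 on the log2 scale (SE, adjusted p = 0.116, limma), and its libraries at 42.1 to 52.1 normalized counts lay above those of PBS at 24.97 to 35.9, as for 6.86% of all genes tested. This difference was 0.62 with the GC and length trend removed (adjusted p = 0.094, limma) and 0.58 without fNSF-HA + tBHP replicate 2. BBC3 was lower by -0.49 ± 0.20 (SE, adjusted p = 0.181, limma), a difference of 0.073 with the trend removed and of -0.23 without fNSF-HA + tBHP replicate 2. Without fNSF-HA + tBHP replicate 3, BBC3 (-0.77), BAX (-0.34) and BCL2 (0.73) passed the threshold (adjusted p = 0.00577, 0.0334 and 0.0205, limma), as did 4024 (29.4%) of all genes, so 3 of 10 members is near the share over all genes.

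**Figure D5:**
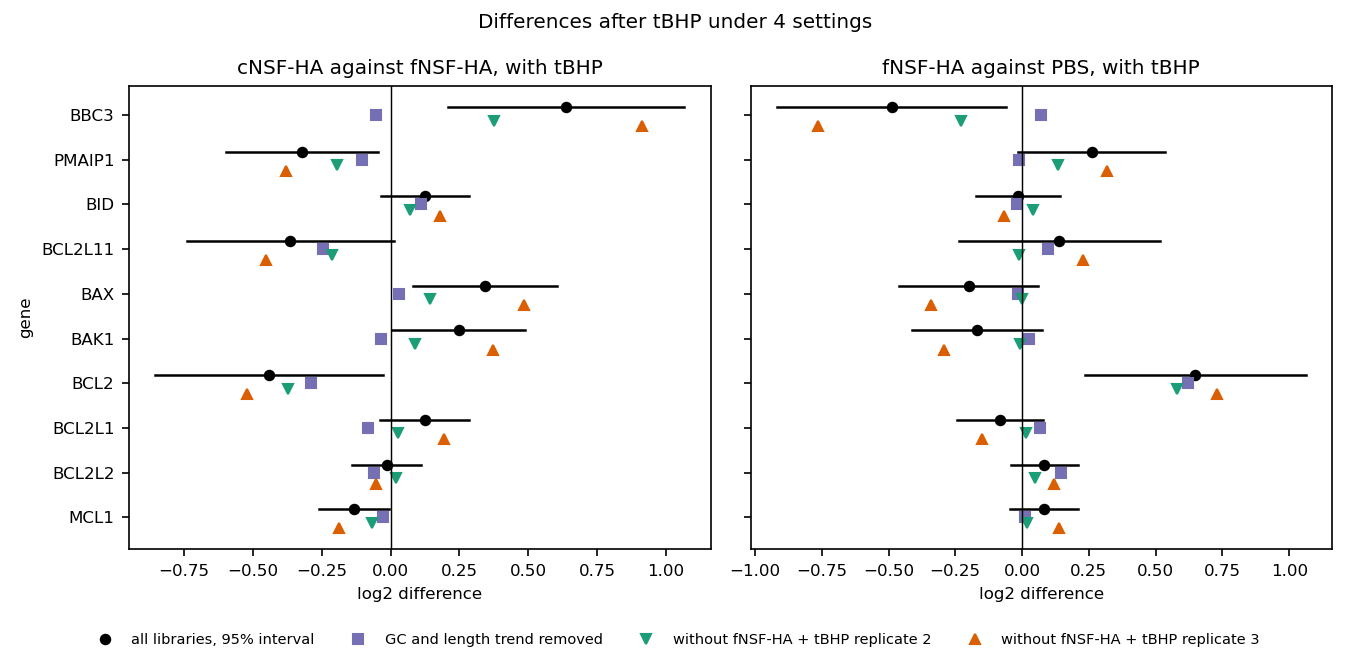
Log2 differences (horizontal axis) of the 10 members after tBHP for cNSF-HA against fNSF-HA (left) and fNSF-HA against PBS (right), with the 95% interval over all libraries (black), with the GC and length trend removed (squares) and without replicate 2 or replicate 3 of fNSF-HA + tBHP (triangles). For cNSF-HA against fNSF-HA the BBC3 estimate runs from -0.053 with the trend removed to 0.91 without replicate 3, and for fNSF-HA against PBS BCL2 stays between 0.58 and 0.73.

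Tested directly, the tBHP response of no member differed between pre-incubations (0 of 10 by limma, edgeR and DESeq2 in each of the 3 interactions, 0 with an unadjusted p under 0.05 in limma, and 0% of all genes called by limma). The estimates furthest from 0 were 0.51 ± 0.29 (SE) for BBC3 and -0.49 ± 0.25 for BCL2L11 in cNSF-HA against fNSF-HA cells, 0.44 ± 0.28 for BCL2 and -0.35 ± 0.29 for BBC3 in fNSF-HA against PBS cells and 0.35 ± 0.28 for BCL2 in cNSF-HA against PBS cells. Without fNSF-HA + tBHP replicate 2 the estimates for cNSF-HA against fNSF-HA cells were 0.25 for BBC3 and -0.34 for BCL2L11, and those for fNSF-HA against PBS cells were 0.37 for BCL2 and -0.093 for BBC3. The BBC3 range of 0.25 to 0.79 in cNSF-HA against fNSF-HA cells covers left-out libraries only (highest without fNSF-HA + tBHP replicate 3). With the GC and length trend removed, the BBC3 responses of PBS and cNSF-HA cells were 2.68 and 2.79, and the BBC3 estimate for fNSF-HA against PBS cells turned positive. With 1 library left out at a time, BCL2 in cNSF-HA against PBS cells ran from 0.14 without cNSF-HA + tBHP replicate 2 to 0.57 without replicate 3 of that group. The latter also moved by over 1.5 times without cNSF-HA replicate 2 (0.22) and PBS + tBHP replicate 1 (0.23).

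Comparisons between pre-incubations without tBHP used a spread shared with the libraries with tBHP, which was wider (median SD 0.21 against 0.076 on the log2 scale). That made small differences hard to call, and 206, 126 and 109 of the 13686 genes had an unadjusted p under 0.05 (limma), in the order named next. The absence of calls here therefore does not show equal levels. No member was called between cNSF-HA and fNSF-HA, cNSF-HA and PBS, or fNSF-HA and PBS (0 of 10 by limma, edgeR and DESeq2, 0 with an unadjusted p under 0.05 in limma, and 0% of all genes called by limma), and the log2 differences ranged from -0.35 to 0.13, -0.14 to 0.08 and -0.14 to 0.21. BCL2 was lower in all cNSF-HA than in all fNSF-HA libraries (-0.35 ± 0.20, SE, and -0.23 without cNSF-HA replicate 2), and so was MCL1 (-0.10 ± 0.06), as were 17.1% of all genes tested. With only these 6 libraries in the fit, MCL1 passed the threshold (adjusted p = 0.0191, limma), as did 980 (7.16%) of all genes. All fNSF-HA libraries were also above all PBS libraries for BCL2 (0.21, background 9.17%), and all cNSF-HA libraries above all PBS libraries for BID (0.08, background 6.89%). BCL2 thus had its highest mean in fNSF-HA cells both without tBHP (94.3 ± 3.79 normalized counts, SD) and with it (47.5 ± 5.03).

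Other genes of the pathway were counted over lists of genes of known function, to be read against the shares of all genes that rose (24.2%, 24.0% and 19.2% after PBS, cNSF-HA and fNSF-HA) and fell (26.9%, 26.8% and 22.7%) with tBHP. Among 11 further BCL2 family genes, 6 were abundant enough to test, and in PBS cells BMF, a BH3-only gene (log2 1.30 ± 0.14, SE), and BCL2L13 (0.59 ± 0.06) rose while the pro-survival gene BCL2A1 fell (-1.31 ± 0.39). BMF and BCL2L13 also rose in cNSF-HA and fNSF-HA cells, and BCL2A1 at -0.01 and 0.07 was not called there. BMF was thus, after BBC3, of the size of PMAIP1.

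Of 15 genes of the apoptosome, the caspases and their inhibitors, 2 rose and 4 fell with tBHP after PBS and also after fNSF-HA, and 1 rose and 4 fell after cNSF-HA, a share called that lay below that of all genes after PBS (51.1%) and cNSF-HA (50.8%) and near it after fNSF-HA (41.9%). The inhibitors of apoptosis BIRC3 (-2.32 ± 0.17, SE) and BIRC2 (-0.89 ± 0.10) fell, as did CYCS (-0.62 ± 0.13), which encodes cytochrome c, all in PBS cells on the log2 scale. Among 5 genes that control the turnover of the MCL1 protein, the ubiquitin ligase gene MARCH5 fell in every pre-incubation (-0.70 ± 0.09 for PBS, -0.64 ± 0.09 for cNSF-HA, -0.57 ± 0.09 for fNSF-HA). The other 4 were not called in PBS cells. Outside the rule for naming genes, and picked after their values were seen, the deubiquitinase gene USP9X fell in cNSF-HA cells (-0.36 ± 0.12, SE) and the ubiquitin ligase gene FBXW7 rose in fNSF-HA cells (0.40 ± 0.11).

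Of the 9 regulators of BH3-only genes, 8 were tested, and 5 rose in every pre-incubation, with 0 falling in PBS cells and 1 in each HA group, against 24.2%, 24.0% and 19.2% of all genes that rose. The stress factors DDIT3 (CHOP; 2.92 ± 0.13, SE) and ATF4 (1.40 ± 0.07), which drive BBC3 and PMAIP1 under endoplasmic reticulum stress, rose most in PBS cells, followed by JUN (0.76 ± 0.13). All 6 oxidant response genes rose in PBS and fNSF-HA cells and 5 of them in cNSF-HA cells. In PBS cells they were led by HMOX1 (2.96 ± 0.10), SLC7A11 (2.67 ± 0.15), SRXN1 (2.35 ± 0.28) and TXNRD1 (1.56 ± 0.08). The response of BBC3 was thus of the size of those of HMOX1 and DDIT3.

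The genes whose log2 values followed BBC3 most closely over the 18 libraries, among 10313 genes with a mean of at least 100 normalized counts, were UNKL (Pearson r = 0.997), OSGIN1 (0.996) and STC2 (0.994). Those nearest to BCL2 were RBMX (0.979), SMC3 (0.975) and IPO5 (0.973). Within the 9 libraries with tBHP the r values were 0.98, 0.98 and 0.92 for BBC3 and 0.93, 0.89 and 0.93 for BCL2 in the same order of genes, and within the 9 without they were 0.44, 0.13 and 0.26, and 0.71, 0.85 and 0.58. All of these points share the libraries.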

How the data were processed

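IMR90 RNA was sequenced by the authors as single-end reads of 100 nt from TruSeq RNA V2 libraries, which do not keep the strand. Per the labels' processing notes, the tools were Trimmomatic 0.32, STAR 2.5.2b, featureCounts of Subread 1.5.0-p3 and DESeq2, with GRCh38.p7; the annotation is not given in the sources used here. The deposited signal is the read count of a gene divided by the size factor of its library: 100% of the values were whole multiples of 1 read (tolerance 0.01), so reads were recovered. The table also holds p-values, q-values and ranks of the authors, which were not used.

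Log2(value + 1), which understates changes of low genes, was tested for the 13686 genes with a mean of at least 10 with limma 3.58.1 in R 4.3.3 (mean-variance trend, 1 coefficient per group, 18 libraries sharing the spread, two-sided, Benjamini-Hochberg, threshold 0.05). Main tests used the deposited values, and edgeR 4.0.16 (quasi-likelihood) and DESeq2 1.42.0 the recovered reads as alternatives, as planned. Other alternatives were pseudocounts of 0.1 and 5, no filter, a minimum mean of 50, median log2 ratio scaling, quantile normalization, a replicate block, only the compared groups, each library left out, and removal of a per-library trend with GC content and length (natural splines, 5 degrees of freedom, 91.4% of genes tested). Transcript lengths, GC content and overlaps came from GENCODE 29. The fit was tested on simulated data. TPM used the exon lengths of 36022 genes. Sequencing reads are not independent molecules, and counting errors between replicates were exceeded: chi-square per degree of freedom was 1.48 to 2.69 for replicate pairs without tBHP and 2.86 to 71.2 with it.

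All 10 members were named throughout; of each other list, up to 4 genes past the threshold with the largest change in PBS cells, and the 3 genes most correlated with the most changed pro-death and pro-survival member. Some genes of the lists, and 1 list, are not reported here. The members and the lists were chosen with earlier results of these data known.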

Additional observations from a re-analysis of the deposited data

How the results depend on the processing

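The counts of members past the threshold stayed within 1.5 times of the reported 7 for each tBHP response, and at 0 for the comparisons between pre-incubations and for the interactions under the alternatives tried, with 3 exceptions. These were the fit of only the groups compared, with 1 member for cNSF-HA against fNSF-HA without tBHP, and the left-out libraries, with 0 to 5 members for cNSF-HA against fNSF-HA and 0 to 3 for fNSF-HA against PBS, both with tBHP; the upper ends came without fNSF-HA + tBHP replicate 3. A replicate block changed none of these counts (7 and 0); replicate numbers share no stated source, correlations of same-numbered deviations ran from -0.12 to 0.33, and 3 of 3 numbers matched best only for cNSF-HA against fNSF-HA without tBHP, so they were not treated as pairs.

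Signs turned for uncalled values. With the GC and length trend removed these were BCL2L2 (-0.12) and BID (-0.037) in the responses of PBS and fNSF-HA cells, BBC3 (-0.053), BAK1 (-0.035) and BCL2L1 (-0.083) for cNSF-HA against fNSF-HA, BAK1 (-0.010) and BCL2L1 (-0.017) for cNSF-HA against PBS, BBC3 (0.073), PMAIP1 (-0.010), BAK1 (0.025) and BCL2L1 (0.066) for fNSF-HA against PBS, all with tBHP, and BBC3 (0.10) in the interaction of fNSF-HA against PBS. BCL2L2 for cNSF-HA against fNSF-HA with tBHP was 0.0022 after quantile normalization and 0.011 with edgeR. Over the left-out libraries, the tBHP response of BCL2L2 in PBS cells ran from -0.0065 to 0.063 and that of BCL2L11 in fNSF-HA cells from -0.026 to 0.21. With tBHP, BCL2L2 ran from -0.052 to 0.020 for cNSF-HA against fNSF-HA; PMAIP1 from -0.17 to 0.042, BAK1 from -8.9e-05 to 0.18 and BCL2 from -0.0038 to 0.42 for cNSF-HA against PBS; and BID from -0.069 to 0.039, BCL2L11 from -0.012 to 0.28, BAX from -0.34 to 0.00041 and BCL2L1 from -0.15 to 0.016 for fNSF-HA against PBS. Among the comparisons without tBHP and the interactions, 10 and 9 of 30 values each also turned sign with a library left out, BBC3 for cNSF-HA against fNSF-HA without tBHP from -0.042 to 0.27, PMAIP1 in the interaction of cNSF-HA against PBS from -0.085 to 0.13 and BCL2 in that of cNSF-HA against fNSF-HA from -0.30 to 0.13 among them. Apart from the GC and length removal, whose construction takes out differences that follow these properties, the cause was not tested.

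Over all genes, cNSF-HA against fNSF-HA with tBHP gave 0 calls with limma and edgeR, 793 with DESeq2 and 5586 without fNSF-HA + tBHP replicate 3, and the same comparison without tBHP gave 980 in the fit of only the groups compared. For fNSF-HA against PBS with tBHP the 19 calls became 36 with edgeR, 451 with DESeq2, 61 with the replicate block and 66 with the GC and length trend removed, 30 with a minimum mean of 50, 3 with no filter, 0 in the fit of only the groups compared, and between 0 and 4024 with 1 library left out, the highest again without fNSF-HA + tBHP replicate 3. Low reads (22 to 100 for BCL2, 50 to 92 for BCL2L11) limit those genes, and the spread between replicates after tBHP limits the others.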
